A study of Mus musculus with 24 samples.

Results

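The kidneys of 8 sham-operated mice were described on their own, as a picture of the adult male mouse kidney that had no infarction upstream of it. They were chosen by their labels, and they make up 8 of the 24 kidneys of the study. The other 16 kidneys came from mice with myocardial infarction (MI), made by tying off the left anterior descending artery of the heart for good, and no value below was compared with them. All mice were male C57BL/6J wild-type animals operated at an age of 8 to 11 weeks under isoflurane anesthesia with buprenorphine. Sham mice went through the same chest surgery, but the artery was not tied, and their kidneys were collected 5 days later, after hemodynamic measurements, and snap-frozen. These are therefore kidneys of operated and anesthetized mice, not of untouched ones, and the time of day of collection was not given in the sources used here. RNA was measured by MACE, a sequencing method that reads the 3′ end of each mRNA and counts molecules with unique molecular identifiers. As each molecule gives 1 count whatever its length, counts scaled to a library total of 1e+06 (CPM) need no correction for length. Levels of different genes are still not strictly comparable. Cox4i1 and Cox5a, subunits of the same enzyme, cytochrome c oxidase, had means of 1119 and 6.67 CPM, and the reason was not tested.

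The kidney filters plasma in the glomerulus, where podocytes hold the filter, and passes the filtrate along a tubule. The proximal tubule (S1 to S3 segments) takes back most of the salt, phosphate, sugar, amino acids and protein, and depends on mitochondrial oxidation of fatty acids to do so. The thin and thick limbs of Henle's loop build the salt gradient of the medulla, and the distal convoluted tubule, the connecting tubule and the collecting duct set the final content of salt, calcium, acid and water. In mice the proximal tubule of males is under androgen control. Kidneys lie in fat, with the adrenal gland at their upper pole.

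Total counts per kidney were between 2280618 and 3786275. A kidney had at least 1 count in 19322 to 20710 genes and at least 10 counts in 11737 to 13003 genes. A count of 0 allows up to 3 counts, which is 0.792 to 1.315 CPM depending on the kidney, and this floor covers counting error only. No kidney looked like a second copy of another: chi-squared over genes, divided by its degrees of freedom, ran from 2.04 to 5.07 over the 28 pairs. By the study's description the 8 kidneys came from 8 mice, 1 sample each, so that all p-values measure the spread between these samples, and mouse and sample handling cannot be told apart. Ddx3y, Uty, Eif2s3y and Kdm5d, which lie on the Y chromosome, had counts in 8 of 8 kidneys (Ddx3y 60.8 ± 3.7 CPM, SD, n = 8), and Xist, which is expressed from the inactive X chromosome of females, had a mean of 0.0477 CPM, with 0 counts in all kidneys but sham 2, which had 0.382 CPM. Before any result it has to be said that sham 2 and sham 6 stood apart from the other 6 kidneys by genes of the adrenal gland, described below, and results that rest on this pair are given with and without it.

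Kap, the kidney androgen-regulated protein of the proximal tubule (ENSMUSG00000032758, chromosome 6, 133849851 to 133853762, GRCm38), was the most abundant gene in 8 of 8 kidneys. It had 43750 CPM in the lowest kidney, 49660 in the median and 51450 in the highest, so that 4.87% of all counts came from this gene alone. The second gene in every kidney was ENSMUSG00000119584, for which the annotation used here has no name, with 24690 to 33570 CPM. Mt-Cytb, the cytochrome b subunit of respiratory complex III encoded in the mitochondrial genome, came next in every kidney with 23430 to 25430 CPM. The order of these first 3 genes was the same in every kidney.

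The 20 most abundant genes held 27.01% of all counts (25.99% to 27.6% in single kidneys). Of these 20 genes, 9 are encoded in the mitochondrial genome, 5 are nuclear copies of mitochondrial genes, 1 has no name and 5 are nuclear protein-coding genes. The nuclear 5, which include Kap, Gpx3, Fth1 and Slc34a1, together made up 7.84% ± 0.297 (SD, n = 8) of the counts. Gpx3, the glutathione peroxidase that the proximal tubule secretes into plasma, had 13600 CPM in the lowest kidney, 14870 in the median and 16700 in the highest. Fth1, the heavy chain of the iron store ferritin, was narrower, at 4597, 4893 and 5021 CPM. Slc34a1, the sodium-phosphate cotransporter NaPi-IIa of the proximal brush border, had 3969, 4241 and 4887 CPM and was among the first 20 genes in 7 kidneys. In none of these 4 named genes was the highest kidney more than 1.23 times the lowest, the ratio of Slc34a1.

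**Figure D1:**
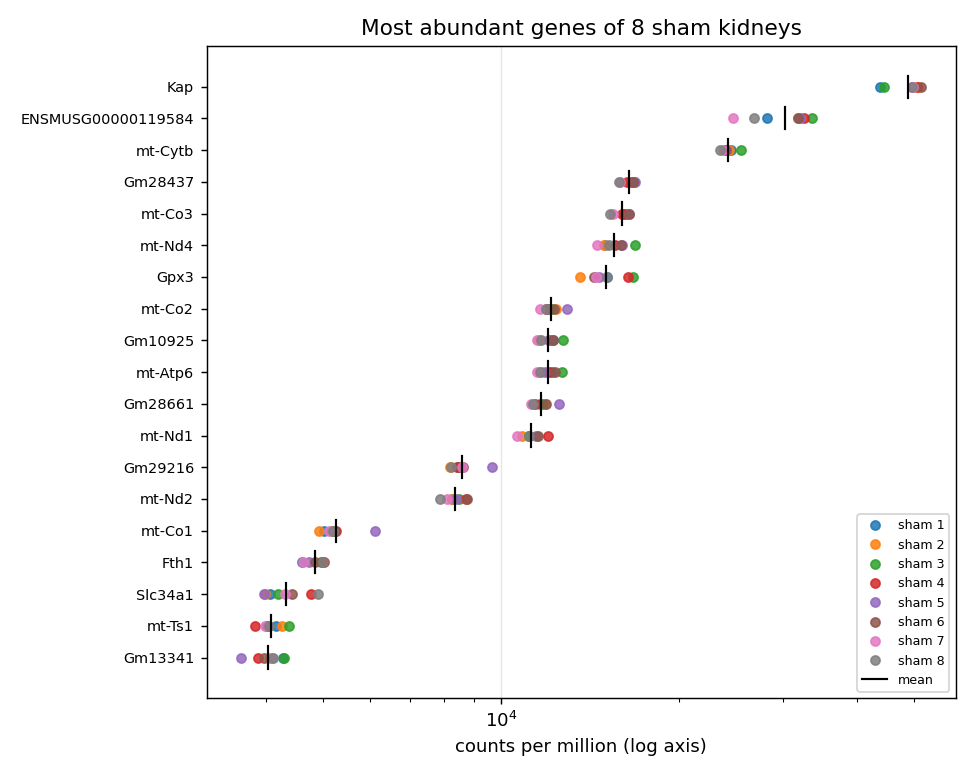
Level of 19 of the 20 most abundant genes in each of the 8 sham kidneys, in CPM on a log axis, with 1 coloured point per kidney and a black bar at the mean. Kap lies at 43750 to 51450 CPM, and the copies Gm28437, Gm10925 and Gm28661 lie beside mt-Co3, mt-Atp6 and mt-Co2.

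In all, 303 to 345 genes sufficed for 50% of a kidney's counts and 5096 to 5370 genes for 90% of them. On average 15480 genes reached 1 CPM, 9346 reached 10 CPM, 1502 reached 100 CPM and 77 reached 1000 CPM. Protein-coding genes held 84.3% ± 0.374 of the counts, pseudogenes 9.75% ± 0.15, long non-coding genes 1.003% ± 0.0262, mitochondrial ribosomal and transfer RNAs 1.62% ± 0.0743, and identifiers absent from the annotation 3.33% ± 0.318 (SD, n = 8 each). The share of pseudogenes was largely that of the mitochondrial copies described next.

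The 37 genes of the mitochondrial genome held 12.7% ± 0.307 of all counts (SD, n = 8), between 12.3% in sham 7 and 13.2% in sham 3. This spread was larger than the counting error of 0.0192 percentage points, yet the highest kidney was only 1.08 times the lowest. Mt-Co3, subunit 3 of cytochrome c oxidase, had 15310 to 16480 CPM, and mt-Atp6, a membrane subunit of ATP synthase, had 11500 to 12650 CPM. Mt-Nd1 and mt-Nd4, core subunits of complex I, had means of 11240 and 15510 CPM. Of the mitochondrial genes, 27 of 37 varied beyond counting noise (18.1% of all genes tested). None, 0 of 37, varied more than genes of like abundance (2.26% of all genes tested). Both tests are explained below. The first is passed more often by abundant genes, with 97.4% of all genes at 1000 CPM and above.

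Beside them, 9 unprocessed pseudogenes in the nuclear genome shared at least 40% of their 31-base words with mitochondrial transcripts. Of these pseudogenes, 7 lie side by side on chromosome 1, between 24611535 and 24616197 (GRCm38), and shared 97.2% to 100% of their words. Gm28437, identical to mt-Co3 in all its words, had 16450 ± 391.7 CPM beside 16020 CPM for mt-Co3. Gm10925, identical to mt-Atp6, had 12010 ± 405 CPM beside 11980 CPM for mt-Atp6, and Gm28661, identical to mt-Co2, had 11700 ± 415 CPM beside 12150 CPM for mt-Co2. Gm29216, which shares 97.2% of its words with mt-Co1, had 8573 CPM and mt-Co1 itself 5252 CPM. Counts of a copy and of its mitochondrial original cannot be told apart from these files. With the 9 copies added, the mitochondrial share was 18.7% ± 0.417 (SD, n = 8), with 18.2% in the lowest kidney and 19.3% in the highest.

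The nuclear genes for the respiratory chain and ATP synthase, 80 in all, held 3.74% ± 0.1 of the counts, and the 85 genes of cytosolic ribosomal proteins 1.72% ± 0.0593 (SD, n = 8). The ribosomal list was drawn up by gene symbol and includes the pseudogenes Rpl6l, Rpl32l and Rps4l. In both groups the highest kidney was 1.08 or 1.09 times the lowest. Of the 78 respiratory genes tested, 1 varied more than genes of like abundance, and it was Cox8b, a cytochrome c oxidase subunit used in brown fat and muscle. None of the 82 ribosomal protein genes tested did, while 25 of them varied beyond counting noise (18.1% of all genes tested). Many of the 82 had 100 CPM or more, and of all genes from 100 to 300 CPM, 46.5% varied beyond counting noise.

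Of the lists of nephron segments, the general list of the proximal tubule held the largest share of the counts, followed by that of its S1 and S2 segments. A list's share depends on which genes are in it and how strongly each is expressed, and is not a share of cells. In whole-kidney RNA, fewer cells of a type and less RNA per cell cannot be told apart. The 14 general markers of the proximal tubule held 7.06% ± 0.366 of all counts (SD, n = 8), with 6.42% in sham 1 and 7.4% in sham 4, most of it from Kap. Without the 10 most abundant genes, Kap among them, the other proximal markers held 2.74% of the counts that remained. Acy3, an aminoacylase that deacetylates mercapturic acids, had 2860 CPM, Acsm2, a medium-chain acyl-CoA synthetase, 2696 CPM, Slc27a2, a very-long-chain fatty acid transporter, 2497 CPM, and Miox, which starts the breakdown of myo-inositol, 1957 CPM (means of 8 kidneys). Lrp2, the endocytic receptor megalin, had 725 CPM and its partner Cubn (cubilin) 127 CPM. Of the 14 genes, 14 varied beyond counting noise (18.1% of all genes tested) and 1 more than genes of like abundance (2.26%) in the tests explained below. This was Pck1, the first step of gluconeogenesis, with 860 CPM in sham 5, 1259 in the median kidney and 1750 in sham 3 (edgeR adjusted p = 4.87e-05).

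The list of the proximal convoluted tubule (S1 and S2, 9 genes) held 0.61% ± 0.0446, and that of the straight part (S3, 6 genes) 0.14% ± 0.0119 of the counts (SD, n = 8). In the first list, Slc22a6, the organic anion transporter OAT1, had 507 CPM in the lowest kidney and 781 in the highest, and Slc4a4, the basolateral bicarbonate cotransporter, had 424.5 to 557 CPM. Slc22a8, the related transporter OAT3, had 149 CPM in sham 5 and 282 CPM in sham 4, and was the 1 gene of the 7 tested that varied more than genes of like abundance (edgeR adjusted p = 0.0172). In the second, Slc7a13, a cystine transporter of male S3 cells, had 679 to 990 CPM and Cyp7b1, an oxysterol hydroxylase, 169 to 283 CPM. Several transporters that define these segments were near 0. Slc5a2, the glucose transporter SGLT2, had a mean of 0.315 CPM, and Slc3a1, the heavy subunit of the cystine transporter, 0.854 CPM. The final 300 bases of both genes overlap a gene on the other strand (BC017158 and Prepl), as do those of Avpr2, the vasopressin receptor (0.0829 CPM, Arhgap4 and L1cam). Of all protein-coding genes, 20.2% have such an overlap on either strand, among them S100g at 1295 CPM and Umod at 834 CPM, and its part in the low values was not tested.

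The loop of Henle had the widest ranges among the segments of the tubule. The 6 markers of the thick ascending limb held 0.187% ± 0.0363 of the counts (SD, n = 8), with 0.125% in sham 4, 0.185% in the median kidney and 0.256% in sham 1. Slc12a1, the sodium-potassium-chloride cotransporter NKCC2 that loop diuretics block (chromosome 2, 125152505 to 125230002, GRCm38), had 446 CPM in sham 4, 784 in the median kidney and 1211 in sham 1. Umod, the urinary protein uromodulin, followed the same ends with 630 and 1056 CPM. In 5 of the 6 genes sham 1 was highest (15.7% of all genes tested), and in 5 of the 6 sham 4 was lowest (14.6% of all genes tested).

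The 5 thin limb markers had the same kidneys at their ends, with summed levels of 63.4 CPM in sham 4 and 204 CPM in sham 1. Slc14a2, the urea transporter of the inner medulla, had 16.6 CPM in sham 4 and 73.4 CPM in sham 1. Fst, the activin antagonist follistatin, had 1.58 and 13.6 CPM in the same kidneys. Sham 4 was lowest in 4 of the 5 genes and sham 1 highest in 3 (14.6% and 15.7% of all genes tested). In the tests below, Slc12a1 and Ptger3 (a prostaglandin receptor) of the thick limb and Slc14a2 and Fst among 3 genes of the thin limb varied more than genes of like abundance (edgeR adjusted p between 1.68e-08 for Slc14a2 and 0.00334 for Ptger3).

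Of 4 genes that medullary cells raise under high salt, 1 varied more than genes of like abundance. This was Akr1b3, aldose reductase, which makes sorbitol, with 43.6 CPM in sham 7, 72.4 in the median kidney and 119 in sham 4 (edgeR adjusted p = 1.75e-06).

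The distal segments had narrower ranges. The distal convoluted tubule list (4 genes) held 0.0463% ± 0.00305, and Slc12a3, the thiazide-sensitive cotransporter NCC, had 333 to 407 CPM. The connecting tubule list (5 genes) held 0.344% ± 0.0314. In it, Klk1, tissue kallikrein, had 1622 to 1974 CPM, and S100g, the calcium carrier calbindin-D9k, had 922 to 1509 CPM, with its lowest value in sham 2. None of the 9 genes of these lists tested varied more than genes of like abundance.

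Principal cells of the collecting duct (8 genes) held 0.0897% ± 0.0115 of the counts and intercalated cells (10 genes) 0.029% ± 0.00209 (SD, n = 8). Aqp2, the vasopressin-regulated water channel, had 360 CPM in sham 7, 473 in the median kidney and 621 in sham 2, and Fxyd4, a regulator of the sodium pump, had 48.9 to 102 CPM. These were the 2 of 7 principal cell genes tested that varied more than genes of like abundance (2.26% of all genes tested). Their edgeR adjusted p was 0.00754 and 0.0242, and Fxyd4 did not pass the test without sham 2 and sham 6. Of the intercalated cell genes, Atp6v1g3, a proton pump subunit, had 68.0 to 79.9 CPM, and Slc26a4, the chloride-bicarbonate exchanger pendrin, 26.96 to 42.1 CPM. None of the 9 tested varied more than genes of like abundance. Uroplakins and Psca, markers of the urothelium that lines the renal pelvis, summed to 39.0 CPM in sham 6 and 112 CPM in sham 2. Upk1a, Upk3a and Psca of the 5 tested varied more than genes of like abundance (2.26% of all genes tested), and Upk3a did not without sham 2 and sham 6. How much of the pelvis was in each piece of tissue was not given in the sources used here.

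**Figure D2:**
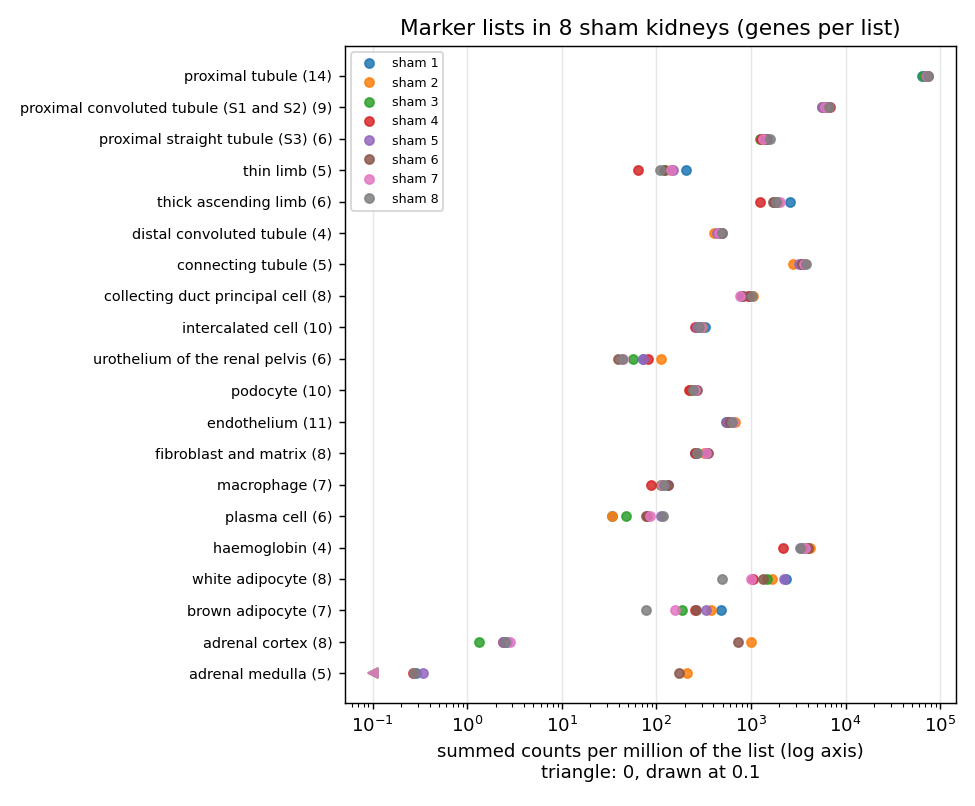
Summed level of 20 marker lists in each sham kidney, in CPM on a log axis, with the number of genes per list in brackets, 1 coloured point per kidney and a triangle for a sum of 0. Nephron segments lie within narrow ranges apart from the thin limb (63.4 to 204 CPM), thick ascending limb and urothelium, while adrenal cortex genes lie at 997 and 730 CPM in sham 2 and sham 6 and at 1.31 to 2.81 CPM in the others.

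The 10 podocyte genes held 0.0244% ± 0.00173 of the counts. Podxl, the anionic coat protein of podocytes, had 78.7 to 103 CPM. None of the 10 varied more than genes of like abundance, and neither did any of the 11 endothelial genes (0.0594% ± 0.00507 of the counts), among which Plvap of fenestrated capillaries had 98.8 to 139 CPM. Fibroblast and matrix genes held 0.03% ± 0.00434. Col1a1, a chain of collagen I, had 30.5 CPM in sham 1 and 69.4 CPM in sham 5, and was the 1 gene of these 8 that passed the test, narrowly (edgeR adjusted p = 0.0482). Ren1, renin, had 82.1 CPM in sham 2, 141 in the median kidney and 193 in sham 1, a spread above that of genes of like abundance (edgeR adjusted p = 2.59e-05), but it did not pass the test without sham 2 and sham 6.

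The macrophage list (7 genes) summed to 87.2 to 133 CPM, and the 4 genes of T and B lymphocytes to 0.792 to 5.22 CPM. Of the 4 immunoglobulin and plasma cell genes tested, 3 varied more than genes of like abundance (2.26% of all genes tested). Igha, the constant region of IgA, had 10.45 CPM in sham 1 and 11.45 CPM in sham 2, a median of 38.9 and 61.9 CPM in sham 8. Igkc, the kappa light chain, ran from 8.4 to 39.8 CPM, and Jchain, which joins IgA dimers, from 0.764 to 9.12 CPM. These were the 3 genes that passed the test (edgeR adjusted p = 1.68e-20, 5.66e-09 and 0.000118), and sham 1, sham 2 and sham 3 were the 3 lowest kidneys in each (2.83% of all genes tested). Ighm, the heavy chain of IgM and the other gene tested, had another order, with 3.96 CPM in sham 4, a median of 7.72 and 12.98 CPM in sham 2, and did not vary beyond counting noise (edgeR adjusted p = 0.082).

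Haemoglobin genes, which mark blood left in the tissue, summed to 2155 CPM in sham 4 and to 3265 to 4190 CPM in the other 7 kidneys. Sham 4 was lowest for all 4 genes (14.6% of all genes tested). Hbb-bt and Hbb-bs varied more than genes of like abundance (edgeR adjusted p = 2e-05 and 0.00361), and Hba-a1 and Hba-a2 had adjusted p = 0.388 and 0.168. The alpha genes are near-identical copies, so that the split of counts between them is uncertain.

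Of the 10 genes on the list of tubular injury, 5 had enough counts to be tested and 0 varied more than genes of like abundance. Havcr1 (KIM-1) had 0.877 to 3.05 CPM, and Lcn2 (NGAL) 0.528 to 4.06 CPM, levels of a few counts per kidney. Spp1, osteopontin, which the healthy loop of Henle also expresses, had 512 to 728 CPM. Interferon-stimulated genes (10) and MHC class II genes (4) held 0.0149% ± 0.00247 and 0.0349% ± 0.00344 of the counts, and none of them varied more than genes of like abundance.

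A pair of questions was then put to each gene with a mean of at least 10 counts per kidney, 12473 genes in all. The first was whether its counts differed between kidneys by more than the Poisson error of counting. The second was whether they differed by more than the dispersion trend that edgeR fits across genes gives at its abundance. Passing the second is written here as varying more than genes of like abundance. Both tests used the goodness-of-fit deviance of edgeR with 7 degrees of freedom and Benjamini-Hochberg adjustment over all 12473 genes. The first test was passed by 2259 genes (18.1%), and the second by 282 (2.26%). The excess CV gives the size: the coefficient of variation between kidneys that remains once the counting part is taken out. Its median over all genes tested was 6.27%, with 20.25% at the 90th percentile. The trend was higher than the median excess CV at each level, with medians of 9.555% and 5.534% from 100 to 300 CPM. A gene that did not pass the second test could thus still vary more than the median gene of its level.

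The share of genes above counting noise followed abundance. It was 7.71% for genes under 10 CPM, 20.7% from 30 to 100 CPM, 82.1% from 300 to 1000 CPM and 97.4% of the 77 genes at 1000 CPM and above. The median excess CV did not follow it in that way, at 9.3%, 5.755%, 6.21% and 6.37% in the same bins, while the median CV expected from counting alone was 23.55% in the first bin and 1.3% in the last. Of the genes above the trend, 4 had a mean of 1000 CPM or more: Cyp4b1 (2124 CPM), Hbb-bs (1460 CPM), Scd1 (1298 CPM) and Pck1 (1241 CPM).

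**Figure D3:**
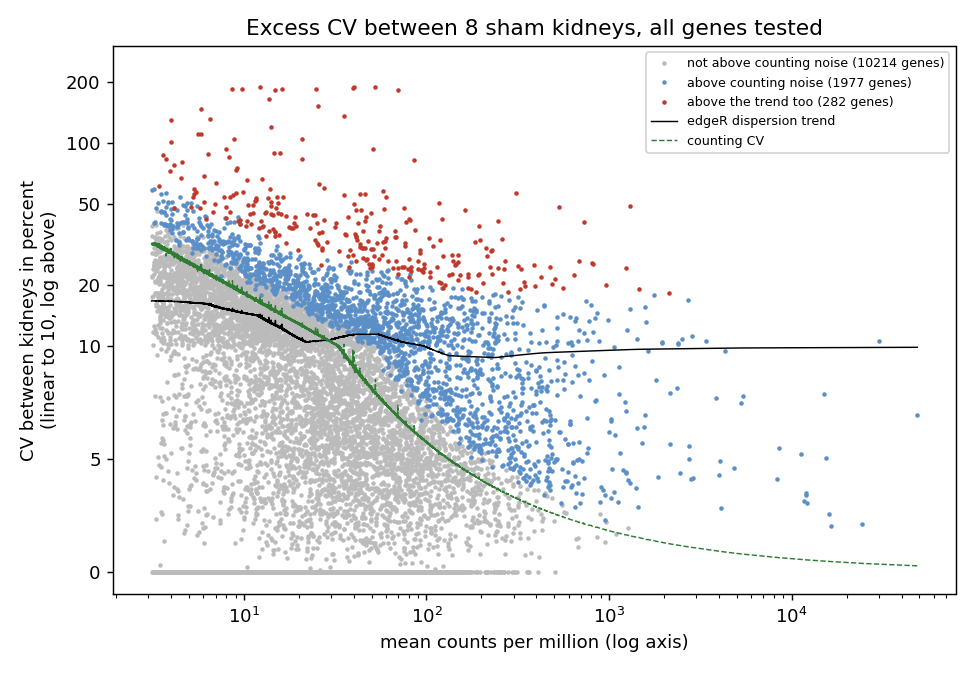
Excess CV between the 8 sham kidneys (percent, linear up to 10 and log above) against mean CPM (log axis) for the 12473 genes tested, 1 point per gene. The 282 red genes lie above the edgeR dispersion trend (black line), the blue genes above counting noise alone, and the dashed green line is the CV that counting gives.

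The largest spread of all belonged to genes of the adrenal gland. Hsd3b1, which makes progesterone from pregnenolone (chromosome 3, 98852194 to 98859794, GRCm38), had 246 CPM in sham 2, 174 CPM in sham 6 and 0 counts in each of the other 6 kidneys. Star, which carries cholesterol into the mitochondrion, had 308 and 240 CPM in this pair and 0.877 to 2.53 CPM in the others. Cyp11a1, the side-chain cleavage enzyme, had 189 and 130 CPM against 0 to 0.674 CPM, and Cyp21a1, the 21-hydroxylase, 181 and 134.5 CPM against 0 to 0.2765 CPM. The groups formed by this pair and the other 6 did not overlap in any of these genes, and sham 2 and sham 6 were the 2 highest kidneys in 4.63% of all genes tested.

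Cyp11b1, the 11-beta-hydroxylase that completes corticosterone in the inner zones of the cortex, had 58.0 and 40.2 CPM and 0 counts elsewhere. Cyp11b2, the aldosterone synthase of the outer zone, had 0 counts in 8 of 8 kidneys. Markers of the adrenal medulla moved with those of the cortex. Chga and Chgb, the chromogranins of secretory granules, had 68.3 and 103.5 CPM in sham 2 and 60.6 and 93.2 CPM in sham 6, and at most 0.337 CPM in the others. Th, Dbh and Pnmt, which make catecholamines, had 5.3 to 16 CPM in the pair and 0 counts in the others.

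Summed, the 8 cortex genes reached 0.0997% of the counts in sham 2 and 0.073% in sham 6, with 1.31 to 2.81 CPM elsewhere. The 5 medulla genes reached 213 and 175 CPM, with 0 to 0.337 CPM elsewhere. Sham 2 had 1.37 times the cortex sum of sham 6 and 1.21 times its medulla sum. All 5 cortex genes and both medulla genes with enough counts had excess CVs of 182% to 188% and passed the second test. They had enough counts only through sham 2 and sham 6, and without this pair 0 genes of either list could be tested. Passing was therefore fixed by the filter and is no support of its own.

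Other genes with their 2 highest values in this pair were Meg3, an imprinted non-coding RNA (116 and 110 CPM against 7.46 to 12.8), Abcb1b, a drug efflux pump (61.85 and 35.6 against 1.45 to 2.91), and Akr1cl (64.9 and 52.3 against 0 to 0.528). Fdxr, which passes electrons to mitochondrial cytochromes P450, had 56.5 and 40.5 CPM against 9.77 to 13.6. Akr1b7 is both a marker of renin cells and a gene of the adrenal cortex, and had 72.9 and 100.4 CPM in the pair against 3.43 to 6.58. Kcnk3, a potassium channel of adrenal and brown fat cells, had 62.2 and 48.1 CPM against 2.49 to 18.5. Srd5a2, a steroid 5-alpha reductase, had 48.5 and 34.1 CPM against 3.19 to 8.29, and Ly6d, a surface protein, 38.9 and 38.3 CPM against 3.32 to 14.5. Of the 282 genes above the trend, 37 had sham 2 and sham 6 as their 2 highest kidneys, and 47 had sham 1 and sham 5, the most frequent of the other pairs. Without this pair, 262 genes were above the trend, 215 of them shared with the 282. Of the 37, 4 were among them: Kcnk3, Ly6d, Rgs2 and the gene model Gm43305. The 5 cortex and 2 medulla genes among the 37 had too few counts to be tested without the pair. The same held for further genes of the 37, among them Akr1cl and Abcb1b. These, too, had enough counts only through sham 2 and sham 6, so that their place among the 37 is no support of its own.

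Fat genes were graded across the kidneys instead of present or absent. Ucp1, the uncoupling protein that defines brown fat (chromosome 8, 83290352 to 83298452, GRCm38), had 1.94 CPM in sham 8, 32.5 in the median kidney and 157 in sham 1. Its highest kidney was 81.1 times its lowest, the largest ratio of any fat gene named here. Cidea, a lipid droplet protein, had 9.95 CPM in sham 8 and 109 in sham 1, and Cox8b 9.4 and 99.2 CPM. Sham 8 was lowest in all 6 brown fat genes tested, against 12.7% of all genes tested.

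White fat genes showed the same kidney at the low end. Fabp4, the fatty acid carrier of adipocytes, had 236 CPM in sham 8, 708 in the median kidney and 1128 in sham 5. Cfd, the complement protease adipsin, had 82.7 CPM in sham 8, 274 in the median kidney and 656 in sham 1. Adipoq, adiponectin, ran from 18 CPM in sham 8 to 95.03 in sham 5, and Plin1, perilipin, from 11.1 to 60.0 CPM. Sham 8 was lowest in 6 of the 7 white fat genes tested (12.7% of all genes tested). All 7 varied more than genes of like abundance, as did 4 of 6 brown fat genes (2.26% of all genes tested). The median excess CVs of the white and brown fat lists were 43.0% and 56%, beside 6.27% over all genes.

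Genes of fatty acid synthesis, which both fat and kidney express, had their lowest summed level in the same kidney as the fat lists, sham 8. Their highest summed level was in sham 5, whereas both fat lists had theirs in sham 1. By the mean log2(CPM + 1) of its genes, however, the white fat list was highest in sham 5 (6.83, with 6.58 in sham 1). Scd1, the stearoyl-CoA desaturase, had 351 CPM in sham 8, 1201 in the median kidney and 2509 in sham 5. Fasn, fatty acid synthase, had 148 CPM and 1037 CPM in the same kidneys, and Thrsp, a regulator of lipogenesis, 40.4 and 283 CPM. Sham 8 was lowest in all 8 genes of this list and sham 5 highest in 7 (12.7% and 13.1% of all genes tested). Of the 8 genes, 6 varied more than genes of like abundance (2.26% of all genes tested), and Me1 (348 to 433 CPM) and Srebf1 (24.9 to 33.0 CPM) did not. Without sham 2 and sham 6 the counts were 7 of 7 white fat genes, 5 of 6 brown fat genes and 6 of 8 genes of fatty acid synthesis. The 6 genes of the exocrine pancreas and the 5 of skeletal muscle summed to at most 0.674 and 1.35 CPM, and the 3 liver genes to 16.85 to 30.25 CPM.

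**Figure D4:**
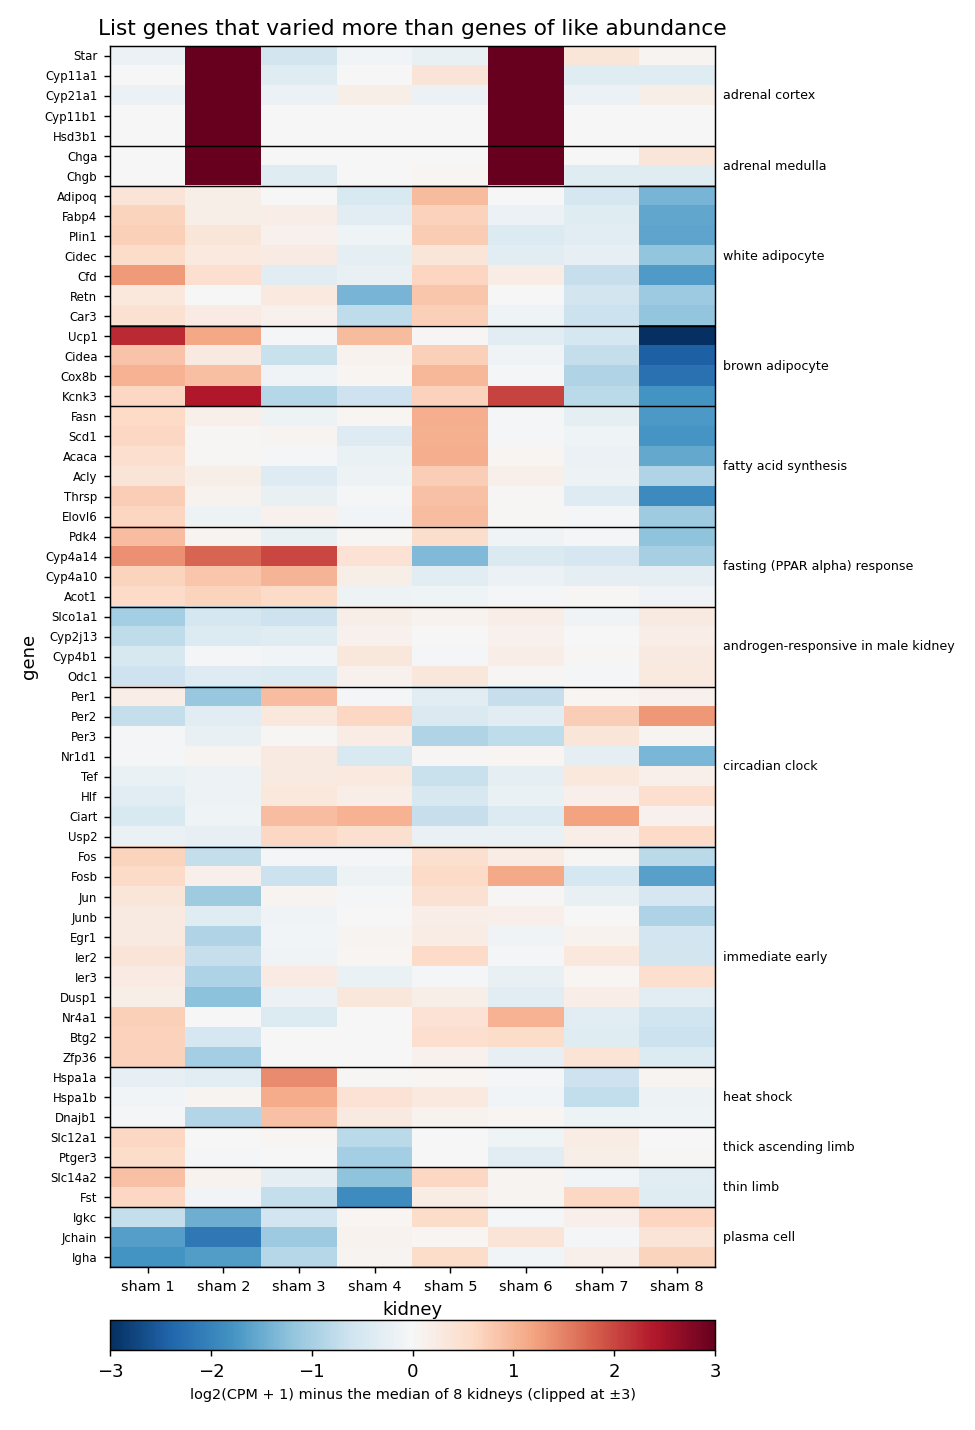
Genes of 13 lists (2 genes not drawn) that varied more than genes of like abundance, as log2(CPM + 1) in each kidney (columns) minus the median of the 8 kidneys, from blue (lower) to red (higher), clipped at 3. Adrenal genes are red in sham 2 and sham 6 alone, fat genes and those of fatty acid synthesis are bluest in sham 8, and Cyp4a14 and Cyp4a10 are reddest in sham 1 to sham 3.

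A further group set sham 1, sham 2 and sham 3 apart from the other 5 kidneys. Cyp4a14, a fatty acid omega-hydroxylase induced through PPAR alpha in fasting (chromosome 4, 115486200 to 115496142, GRCm38), had 130, 170 and 203 CPM in these 3 kidneys and 19.2 to 67.35 CPM in the others. Cyp4a10, its close relative, had 250, 282 and 319 CPM against 123 to 177 CPM. The ranges of the 3 and the other 5 did not overlap, and the same held for Acot1, an acyl-CoA thioesterase, and Vnn1, pantetheinase. Of the 9 genes on the list, 5 had sham 1, sham 2 and sham 3 as their highest kidneys, against 3.21% of all genes tested.

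Of the 9 fasting genes, 9 varied beyond counting noise (18.1% of all genes tested) and 5 more than genes of like abundance (2.26%). Among the 5 were Cyp4a14, Cyp4a10, Acot1 and Pdk4. Pdk4, which blocks glucose oxidation, had another order, with 34.8 CPM in sham 1, a median of 17.96 and 7.19 CPM in sham 8. Cpt1a, the gate of mitochondrial fatty acid import, had 203 to 271 CPM and Plin2 46.2 to 80.9 CPM, and neither passed the second test. Whether the mice had fed before collection was not given in the sources used here.

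Androgen-responsive genes of the male proximal tubule were lowest in these same kidneys. Slco1a1, an organic anion transporter, had 114, 162 and 152 CPM in sham 1, sham 2 and sham 3 and 215 to 279 CPM in the other 5. Odc1, ornithine decarboxylase, the first step of polyamine synthesis, had 318, 375 and 370.5 CPM against 477 to 623 CPM. Cyp2j13 had 106.5 to 141 CPM against 182 to 210 CPM, and Cyp4b1 1485 to 1986 CPM against 2007 to 2591 CPM. In 4 of the 5 genes these 3 kidneys were the lowest (2.83% of all genes tested), and all 4 varied more than genes of like abundance (2.26%). Kap, the other gene of the list, was low in sham 1 and sham 3 but had 50680 CPM in sham 2, near its maximum.

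Genes of the circadian clock divided the kidneys in another way. The clock is a feedback loop in which Clock and Bmal1 switch on Per, Cry, Nr1d1 and the D-box factors Tef and Hlf through E-boxes, and the products switch it off again. Ciart, a repressor of Clock and Bmal1, had 22.8, 24.6, 27.5 and 12.7 CPM in sham 3, sham 4, sham 7 and sham 8 and 6.74 to 10.3 CPM in the other 4. Per2 had 16.7 to 33.7 CPM in the first 4 and 7.545 to 10.3 CPM in the others. Tef had 297 to 335 CPM against 168.5 to 239 CPM, and Usp2, a deubiquitinase with a daily rhythm, 218 to 291 against 161 to 166 CPM. The 4 kidneys and the other 4 did not overlap in Ciart, Per2, Per3, Cry2, Tef, Hlf and Usp2, which are 7 of the 14 clock genes tested, against 2.3% of all genes tested. This division was noticed in the values and has no test of its own.

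Of the 14 clock genes, 8 varied more than genes of like abundance (2.26% of all genes tested): Ciart, Hlf, Nr1d1, Per1, Per2, Per3, Tef and Usp2. Nr1d1, the repressor Rev-erb alpha, went another way, with 19.35 CPM in sham 8, 51.4 in the median kidney and 61.8 in sham 3. Per1, which glucocorticoids also induce, had 20.6 CPM in sham 2 and 89.45 CPM in sham 3. Bmal1, listed as Arntl, had 0.553 and 0.843 CPM in sham 8 and sham 7 and 7.75 CPM in sham 5, too few counts for the test. Clock itself had 29.4 to 44.8 CPM and no spread beyond counting noise was detected (edgeR adjusted p = 0.296). Of 4 glucocorticoid-induced genes, Tsc22d3 and Fkbp5 varied more than genes of like abundance (2.26% of all genes tested). Tsc22d3 (GILZ) had 46.6 CPM in sham 2, 82.85 in the median kidney and 131 CPM in sham 3 and sham 8, and Fkbp5, which tempers the glucocorticoid receptor, 27.6 to 66.9 CPM.

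E-boxes and D-boxes are the letters through which clock factors bind DNA, so the promoters of the clock genes are shown beside their values. Windows from 250 bases before to 50 bases after the start were taken from RefSeq (GRCm38.p6), which held 16 of the 18 clock genes (not Per2 and Bhlhe40). The E-box CACGTG, the same on both strands, was present in 6 of the 21 windows of these genes and in 7.15% of all 32851 windows in the table. The D-box TTANGTAA, read on both strands, was present in 1 of the 21 windows and in 2.32% of all windows. The motifs do not overlap in the sequences printed here, and a match is a string of letters, not a proven site. The E-box windows belonged to Ciart, Per1, Tef, Cry1 and Bhlhe41, of which Cry1 and Bhlhe41 were not above the trend. Hlf, Nr1d1 and Usp2, which were above it, held neither motif, and neither did a second window of Per1. Printed are windows of the 4 genes that were above the trend and held a motif, 5′ to 3′ on the gene's own strand, with E-boxes and D-boxes in capitals: those of Ciart (chr3:95882179-95882478, minus strand, 3 E-boxes), Per1 (chr11:69098699-69098998, plus strand, 1 E-box), Tef (chr15:81802423-81802722, plus strand, 1 E-box) and Per3 (chr4:151044616-151044915, minus strand, 2 D-boxes).
Ciart: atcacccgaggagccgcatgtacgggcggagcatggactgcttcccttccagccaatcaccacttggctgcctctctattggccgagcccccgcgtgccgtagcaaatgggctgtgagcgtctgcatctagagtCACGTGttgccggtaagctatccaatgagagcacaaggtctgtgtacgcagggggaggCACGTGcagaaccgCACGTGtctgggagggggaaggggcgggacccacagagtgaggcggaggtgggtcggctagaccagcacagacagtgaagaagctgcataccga
Per1: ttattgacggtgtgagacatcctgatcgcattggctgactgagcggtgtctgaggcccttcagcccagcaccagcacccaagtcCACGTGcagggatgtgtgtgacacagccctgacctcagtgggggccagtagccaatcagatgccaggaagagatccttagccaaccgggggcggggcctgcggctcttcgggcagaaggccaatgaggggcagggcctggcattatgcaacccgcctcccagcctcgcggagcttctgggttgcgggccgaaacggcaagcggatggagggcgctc
Tef: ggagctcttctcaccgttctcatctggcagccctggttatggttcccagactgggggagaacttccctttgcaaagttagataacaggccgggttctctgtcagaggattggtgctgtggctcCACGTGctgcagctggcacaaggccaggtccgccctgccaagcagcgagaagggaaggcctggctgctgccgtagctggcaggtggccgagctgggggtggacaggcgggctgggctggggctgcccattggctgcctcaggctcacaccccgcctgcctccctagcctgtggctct
Per3: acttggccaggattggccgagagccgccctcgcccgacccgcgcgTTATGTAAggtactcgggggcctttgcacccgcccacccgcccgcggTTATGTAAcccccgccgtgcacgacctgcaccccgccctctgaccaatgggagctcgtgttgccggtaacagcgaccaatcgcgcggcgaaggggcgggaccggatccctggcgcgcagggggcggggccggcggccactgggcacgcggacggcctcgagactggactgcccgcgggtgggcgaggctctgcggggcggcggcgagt

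Immediate early genes, which cells switch on within minutes of a stimulus, varied as a group. Of the 12 tested, 12 varied beyond counting noise (18.1% of all genes tested) and 11 more than genes of like abundance (2.26%). Zfp36, which destabilizes cytokine mRNAs, had 126 CPM in sham 2, 256 in the median kidney and 416 in sham 1. Dusp1, a MAP kinase phosphatase, had 103 CPM in sham 2 and 307 in sham 4, and Egr1 179 CPM in sham 2 and 404 in sham 1. Fos had 64.4 CPM in sham 8, 114 in the median kidney and 183 in sham 1, and Nr4a1, an orphan nuclear receptor, 68.6 CPM in sham 8 and 217.5 in sham 6. Sham 2 was lowest in 7 of the 12 genes and sham 8 in the other 5 (11.5% and 12.7% of all genes tested). Without sham 2 and sham 6, 8 of the 12 were still above the trend, and Egr1, Dusp1 and Ier3 were not.

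Of the 9 heat shock genes, 3 varied more than genes of like abundance (2.26% of all genes tested), each with sham 3 as its highest kidney. Hspa1a, the inducible Hsp70, had 24.45 CPM in the lowest kidney, 37.9 in the median and 103 in sham 3. Its neighbour Hspa1b, a near-identical copy, had 39.9, 67.1 and 147 CPM, again with sham 3 highest, and the co-chaperone Dnajb1 had 30.5, 56.8 and 105 CPM. All 3 passed the second test (edgeR adjusted p between 1.04e-10 and 2.45e-05). Sham 3 was highest in 5 of the 9 genes (12.4% of all genes tested), and the summed list was at 1916 CPM in sham 3 and 1914 CPM in sham 8. Hspa8, the constitutive member, had 590 to 941 CPM, with sham 8 highest, and Hsp90aa1 had 149 to 174 CPM, with no spread beyond counting noise detected (edgeR adjusted p = 0.553).

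The steady end of the range was examined in the 1502 genes with at least 100 CPM, where counting error is small. Their median excess CV was 5.64%, and 154 of them had an estimate of 0. Such an estimate does not show that there was no excess spread. That of Rpl7a, at 115 CPM, had an upper 95% limit of 9.48%. The 15 genes with the lowest upper 95% limit were chosen for this value, so that their limits are a description and favour genes that were even by luck. Alkbh5, an RNA demethylase that removes N6-methyladenosine (chromosome 11, 60536381 to 60558512, GRCm38), had 123 CPM in the lowest kidney, 128 in the median and 135 in the highest. Its spread was so far below the Poisson expectation that the upper limit of its excess CV is 0%.

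Among the other 14, Atp5f1, a stalk subunit of ATP synthase, had 491 to 520 CPM (upper limit 1.84%), Ndufc1, a complex I subunit, 334 to 378 CPM (3.91%), and Chchd2, which regulates respiration, 923 to 1026 CPM (3.95%). Rpl18 and Rps29, ribosomal proteins, had upper limits of 2.07% and 3.21%. Hnrnpa2b1, an RNA-binding splicing factor, had 297 to 314 CPM (3.15%), Laptm4a, a lysosomal membrane protein, 346 to 384 CPM (3.19%), and Dad1, a subunit of the oligosaccharyltransferase, 156 to 172 CPM (3.15%). The remaining members were Hcfc1r1, Psme4 (a proteasome activator), Ppp1cb (a catalytic subunit of protein phosphatase 1), Hibadh (an enzyme of valine breakdown), the pseudogene Rpl31-ps8 and the gene model Gm12174. Counts of Rpl31-ps8 and ribosomal genes are uncertain because near-identical copies exist.

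Of 16 genes in common use as references for qPCR, 8 varied beyond counting noise (18.1% of all genes tested) and 0 more than genes of like abundance (2.26%). The first test was passed by 20.7% of all genes from 30 to 100 CPM and by 46.5% from 100 to 300 CPM. The 16 reference genes had means from 12.4 CPM (Tbp) to 2157 CPM (Actb). Their median excess CV was 5.68%, close to the 6.27% of all genes. Sdha, a subunit of complex II, had 440 to 486 CPM and an upper limit of 8.53%, and Rplp0, a ribosomal stalk protein, 600.1 to 685 CPM and an upper limit of 8.87%, the lowest limits of the 16. Actb, beta-actin, had 1941 to 2333 CPM and an excess CV of 5.65% (95% limits 3.61% to 11.7%). Gapdh had 123 to 153 CPM and an excess CV of 4.95% (0% to 12.8%).

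Cdkn1b, the cell cycle inhibitor p27 that the study used to normalize its qPCR, had 33.7 CPM in the lowest kidney, 39.0 in the median and 46.6 in the highest. It did not vary beyond counting noise (edgeR adjusted p = 0.488), and its excess CV of 4.03% had limits of 0% and 18.5%, wider than those of Actb, which has more counts. Tfrc, the transferrin receptor (26.4 to 44.0 CPM, excess CV 19.3%), and Gusb, beta-glucuronidase (34.5 to 57.2 CPM, 14.3%), were the most variable of the 16 with Tbp (10.7%, limits 0% to 33.9%).

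**Figure D5:**
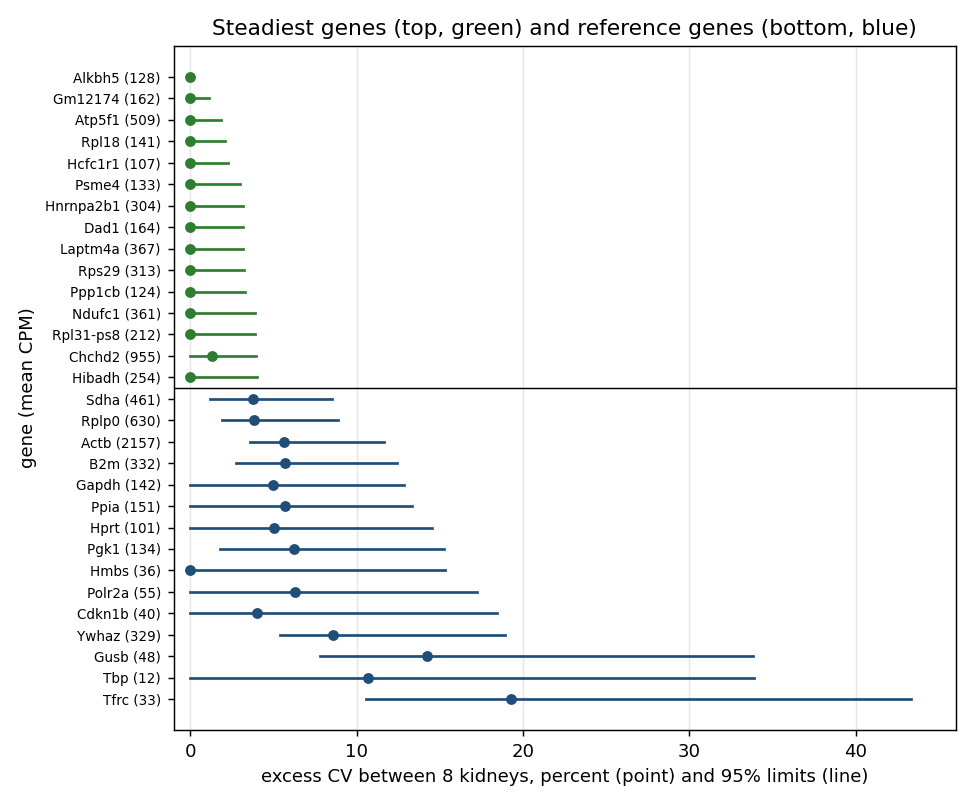
Excess CV between the 8 kidneys (point) with 95% limits (line), in percent, for the 15 steadiest genes of at least 100 CPM (green) and 15 of the 16 reference genes (blue), with mean CPM in brackets. Limits of the steadiest genes end at 4.004% or lower, and those of the reference genes at 8.53% (Sdha) to 43.3% (Tfrc).

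In principal components of the 500 genes with the largest variance, the same groups of genes came first. PC1 held 46.5% of the variance and set sham 2 (score 8.63) and sham 6 (6.66) apart from the other 6 kidneys (−3.98 to −1.22). Its 10 largest loadings were Hsd3b1, Star, Cyp11a1, Cyp21a1, Chgb, Chga, Cyp11b1, Akr1cl, Meg3 and Akr1b7. PC2 held 23.02% and ran from sham 1 (5.6) to sham 8 (−5.59), led by Scd1, Cfd, Fabp4, Fasn and Ucp1. PC3 held 12.9% and ran from sham 5 (4.47) to sham 3 (−3.7), led by Cyp4a14 and Cyp4a10. Without sham 2 and sham 6, the first component held 47.7% of the variance and was led by Scd1, Cfd, Fasn and Fabp4.

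Relations between lists were examined for 8 pairs of lists, as correlations of the mean log2(CPM + 1) of the list genes over the kidneys. White and brown fat lists had Pearson r = 0.81 (exact permutation p = 0.0132, adjusted over the 8 pairs 0.106) and Spearman rho = 0.76 (exact permutation p = 0.0368, adjusted 0.294). Without sham 4 and sham 8, the kidneys farthest from the median, r was 0.75. When the CPM of each list was summed before taking log2, r was 0.92, and this value passed the adjustment (exact permutation, adjusted p = 0.0187). The thick ascending limb and principal cell lists had r = 0.57 (exact permutation p = 0.121, adjusted 0.485) and rho = 0.67 (p = 0.0831, adjusted 0.332), and r = 0.34 without sham 1 and sham 4. As the kidneys form 2 clusters in the adrenal cortex list, its relation to white fat was examined within the 6 kidneys other than sham 2 and sham 6. There r was 0.05 (exact permutation p = 0.942, adjusted 0.979) and rho 0.43 (p = 0.419, adjusted 0.839). In these 6 kidneys the cortex list summed to only 1.315 to 2.81 CPM, a few counts each. The correlation thus rests mostly on counting error and cannot decide whether the lists are related. The other 5 pairs had r between −0.18 and 0.38, with adjusted exact permutation p = 0.979 for each. As set out at first, with the mean of log2 values, no pair passed the adjustment.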

How the data were processed

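The kidneys were snap-frozen, RNA was extracted from whole tissue, and MACE libraries of mRNA 3′ ends with unique molecular identifiers were sequenced by the authors. According to the sources, reads were trimmed with Cutadapt, mapped with Bowtie2 and counted with HTSeq. The genome build is given differently in the study's methods and the submitters' processing notes (mm10 and mm39), and the annotation and strand setting are not given in the sources used here. The authors deposited 1 table with raw counts per gene and a second value per gene, named as TPM, for each sample. This deposited value was the count scaled to a library total of 1e+06 (CPM) to within 5e-06, with no correction for length. The 8 sham columns of each kind were used, and the other 32 columns of values in the table were not. Identifiers were matched to GENCODE M21 (GRCm38) for names and coordinates: 51948 of 56941 matched, and the 4993 without a match held 3.298% of the counts. Genes with a mean of at least 10 counts per kidney were scaled by TMM and tested in edgeR 4.0.16 (R 4.3.3) with an intercept alone. Goodness of fit was taken against Poisson counting and against the trended dispersion, at a Benjamini-Hochberg adjusted p of 0.05. The excess CV is the square root of the squared CV less its Poisson part, with 95% limits from the chi-squared distribution. Principal components used the 500 most variable genes after the variance-stabilizing transformation of DESeq2 1.42.0. Relations used exact two-sided permutation tests (scipy 1.17.1), and figures were drawn with matplotlib 3.10.9.

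The genes named were the 20 most abundant, the 20 with the largest excess CV among those above the trend with at least 10 CPM, the 15 with the lowest upper limit among those with at least 100 CPM, 16 reference genes, the 10 with the largest loading on PC1, members of the gene lists by level or call, and Xist with Y-linked genes. Gene models were named only where a result turned on them. The members and lists were chosen with earlier results of these data known, and the divisions of kidneys described for the fasting, androgen, clock, fat and immunoglobulin genes were noticed in the values. The scripts were tested on simulated data. Nuclear copies of mitochondrial genes were found by shared words of 31 bases. Alternatives were other scalings, filters, statistics, denominators and leaving out each kidney. Leaving out sham 2 and sham 6 together and adding the nuclear copies to the mitochondrial share were chosen after seeing the data. Kidneys of mice with infarction were not analysed here, and some genes are not reported here.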

Additional observations from a re-analysis of the deposited data

Results flagged for a closer look

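In 202 sets of 8 kidney values, 10 had 1 kidney farther from its nearest neighbour, as a share of the whole range, than Dixon's 95% critical value allows. Chance flags about 1 in 20 such sets. Sham 4 was low in 3 of them: the haemoglobin list at 2155 CPM (next kidney 3265), Hbb-bt at 212.3 CPM (next 379.3) and Ndufc1 at 334.1 CPM (next 359.2). Sham 2 was high in 3 of them: Upk3b, a uroplakin, at 10.69 CPM (next 6.867), Chchd2 at 1026 CPM (next 966.9) and the Y-linked Uty at 29.4 CPM (next 22.6). Sham 5 was high for mt-Co1 at 6126 CPM (next 5249) and for the exocrine pancreas list at 0.674 CPM, which is below the 3 counts that a count of 0 allows. Ucp1 stood out in sham 1 at 157 CPM (next 74.1), and Hspa1a in sham 3 at 103 CPM (next 40.1). The adrenal genes of sham 2 and sham 6 were not singled out in this way because 2 kidneys shared the high values.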

How the results depend on the processing

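The number of genes beyond counting noise was 1898 to 2233 when each kidney was left out in turn, 1931 without sham 2 and sham 6, and 2013 to 2279 under the other alternatives. The number above the trend was 229 to 277 with a kidney left out, 262 without the pair and 207 to 299 under the others. In all 8 fits with a kidney left out, 126 of the 282 genes and 980 of the 2259 were called. PC1 held 34.1% to 53.5% of the variance with a kidney left out. Of 71 named genes followed through the alternatives, Akr1b7 (excess CV 0%), Fdxr (0%), Meg3 (16.9%) and Srd5a2 (30.8%) were no longer above the trend without the pair. Other genes named above also lost the call without it, among them Ren1, Egr1 and Dusp1. Without mitochondrial genes, shares of counts were 8.08% for the proximal tubule, 0.698% for S1 and S2, 0.160% for S3, 0.0279% for podocytes, 0.0530% for the distal convoluted tubule, 0.394% for the connecting tubule, 0.103% for principal and 0.0333% for intercalated cells. Without the 10 most abundant genes they were, in the same order, 2.74%, 0.764%, 0.175%, 0.0305%, 0.0580%, 0.431%, 0.112% and 0.0364%, with 0.235% for the thick ascending limb and 5.935% for mitochondrial genes. The proximal tubule and mitochondrial shares fell in the second case, as both lists lost genes that were left out, and the other shares given here rose with the smaller total. Mitochondrial genes with their nuclear copies held 18.7%. On the log2 of the summed CPM, white and brown fat had r = 0.92 (exact permutation, adjusted p = 0.0187). No paired analysis was possible because the 8 kidneys form 1 group. Depth limits genes under about 10 CPM, where counting alone gives a CV of 23.55% at the median. The floor given for genes without counts covers counting error only. The limits of the excess CV rest on the whole spread between the 8 kidneys, so that they cover the sampling of kidneys as well as counting error.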
